A study of Mus musculus with 32 samples.

Results

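The comparison set transverse aortic constriction (TAC), in which a constricted aortic arch raises the pressure the left ventricle must pump against, against a sham operation in female (XX) mice labelled as knockout of oestrogen receptor beta. It used 8 of the 32 arrays of the study, 4 from mice with TAC and 4 from sham-operated mice, all chosen by their labels and none by a measured value. All 8 mice were C57Bl6 females of the same knockout label, so the sham mice carried the same knockout as the TAC mice, and the sources used here do not say how the gene was disrupted. Constriction lasted 9 weeks in knockout mice per the labels, which also give an age of 10 weeks but not the step of the experiment it refers to. Left ventricular RNA of each mouse went on its own Affymetrix 430 2.0 array. The whole study crossed sex, genotype and surgery with 4 individual mice per combination, and asked how sex and the receptor bear on remodelling and cell death in the loaded heart. The whole left ventricle holds many cell types, and in such bulk samples fewer cells of a type and less RNA per cell cannot be told apart.

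Pressure overload makes cardiac myocytes grow and return in part to the gene programme of the fetal ventricle, with beta myosin heavy chain, skeletal alpha-actin and the natriuretic peptides as the usual markers. Fibroblasts are activated by mechanical load and by transforming growth factor beta, and lay down collagens and matricellular proteins, which sit in the matrix and modulate how cells hold to it. Energy supply shifts from fatty acids towards glucose in many models of hypertrophy. Oestrogen receptor beta, the product of Esr2, is a nuclear receptor that binds oestrogens, and knockout models of it are used to ask whether it shapes the response of the female heart.

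Values are MAS5 signal intensities, scaled by the authors so that the 2% trimmed mean was 500 on every array. The array medians ran from 103.7 to 106.6 in the TAC mice and from 101.5 to 122.1 in the sham mice, and within-group correlations across probe sets were 0.936 to 0.985, where probe sets are not independent replicates. The markers of adult ventricular muscle were bright: Myh6, the alpha myosin heavy chain gene, ran from 42418 to 61452, and Myl2, the ventricular myosin light chain gene, from 34084 to 52508. Xist, transcribed from the inactive X chromosome, lay between 4846 and 7913 in these mice and between 59.2 and 172.5 in the 16 males. The Esr2 probe set read 93.2, 25.8, 61.4 and 83.6 in the TAC mice and 130, 196.8, 193.2 and 173.8 in the sham mice, against 3.6 to 67.7 in the 8 wild-type females. Its position relative to the disrupted sequence is unknown from the sources used here, so its signal checks no label. The 3-prime over 5-prime log2 difference of the beta-actin control, a measure of RNA length and labelling, was 0.218 to 0.324 after TAC and 0.539 to 0.753 after sham, without overlap (difference -0.409; two-sided exact permutation p = 0.0286, the smallest p that 4 against 4 arrays allow). The Gapdh control differed by 0.0556, in the opposite direction and also without overlap (exact permutation p = 0.0286). The pyruvate carboxylase control differed by 0.111 with overlap (exact permutation p = 0.5429). The beta-actin difference was also lower after TAC without overlap in wild-type females (0.05 to 0.33 against 0.45 to 0.59). The same held in male knockouts (0.29 to 0.48 against 0.55 to 1.10) and wild-type males (0.11 to 0.41 against 0.55 to 0.77). The Gapdh difference, by contrast, overlapped between TAC and sham in wild-type females, male knockouts and wild-type males. With the beta-actin difference as a covariate 0 probe sets were called (1207 at an unadjusted p under 0.05), and with the Gapdh difference 1 was (2819 unadjusted). Neither control overlaps between the 4 TAC and 4 sham arrays compared here. What moved with RNA or labelling and what moved with surgery therefore cannot be told apart by these fits. This holds for every call below.

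After TAC, 163 of 34945 probe sets were higher (0.466% of those tested) and 63 were lower (0.18%) at an adjusted p under 0.05 in limma with Benjamini-Hochberg adjustment over all probe sets. With each gene represented by its brightest probe set, 114 of 18193 genes were higher (0.627%) and 40 lower (0.22%). The median size of the called changes was 1.24 on the log2 scale and the smallest 0.58. The median change over all genes was -0.019. With each array centred on its median, a split of 208 higher and 40 lower replaced the 163 and 63. All 154 called genes had 4 TAC values on one side of all 4 sham values. Over all genes, 4.03% had every TAC mouse above every sham mouse and 3.6% had every TAC mouse below. The number of calls depended on single arrays: it was 75 to 104 without any one of TAC replicates 1, 2 and 3 or sham replicates 1, 3 and 4, and 327 without TAC replicate 4. All changes below are log2 changes ± SE from this fit of 4 against 4 mice, on the log2(signal + 32) scale, which understates the change of dim genes. A gene was called where its adjusted p was under 0.05.

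**Figure D1:**
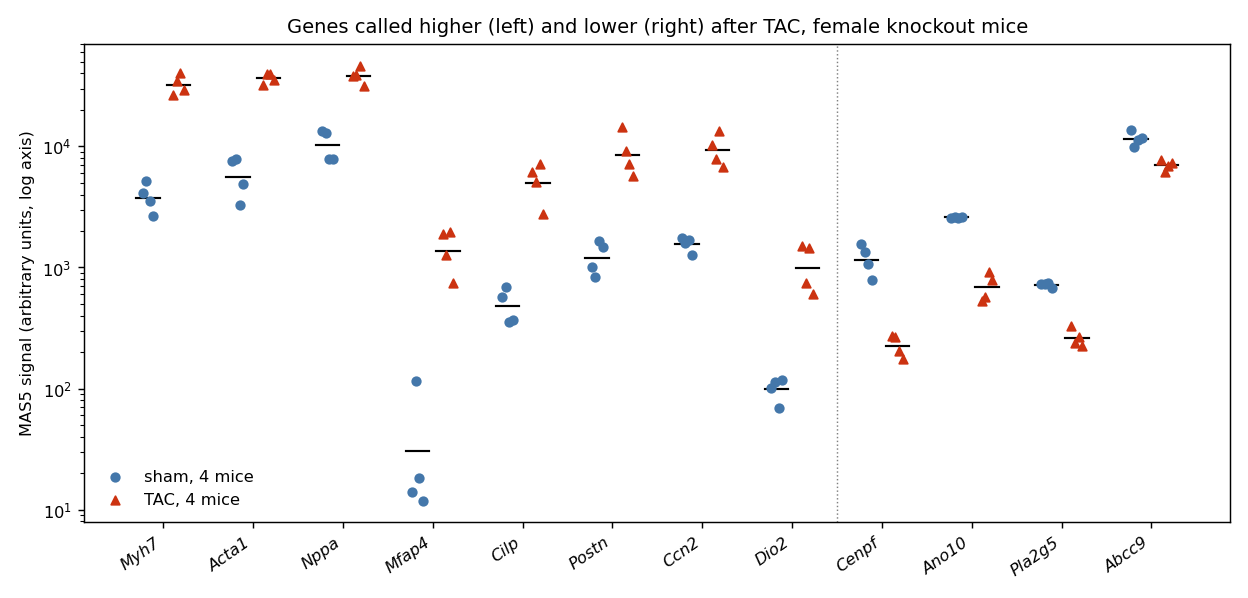
MAS5 signal (log axis, arbitrary units) of 12 called genes in each of the 4 sham mice (circles) and 4 TAC mice (triangles); the lines are group means taken on the log2(signal + 32) scale. The 8 genes left of the dotted line are higher in all 4 TAC mice and the 4 genes right of it are lower, with no overlap between the groups.

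Myosin, actin and natriuretic peptide genes of the fetal programme gave some of the firmest rises. Myh7, the slow beta myosin heavy chain gene, read 26473, 34376, 40261 and 29445 after TAC and 4136, 5147, 3552 and 2669 after sham. Every TAC mouse thus stood far above every sham mouse, and Myh7 rose by 3.08 ± 0.21, an 8.48-fold change (limma, Benjamini-Hochberg adjusted p = 0.000618). Acta1, the skeletal alpha-actin gene, read 32364, 39502, 39233 and 35308 after TAC and 7561, 7836, 3293 and 4908 after sham. The TAC mice lay close together and the sham mice spread over a wider range. Acta1 rose by 2.71 ± 0.25 (6.52-fold, adjusted p = 0.00166). Nppa, the gene of atrial natriuretic peptide, read 38111, 38793, 46341 and 31516 after TAC and 13338, 13005, 7857 and 7888 after sham, with no overlap. It rose by 1.91 ± 0.21 (3.76-fold, adjusted p = 0.00397). The highest signals on the 8 arrays were 42480 to 61452, so these genes came near the top of the scale after TAC, and the sources used here do not say whether the scanner's range was reached. Beta and alpha myosin heavy chain, like skeletal and cardiac actin, are near-identical paralogs, and how far their probe sets read each other's transcript was not tested.

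In the list of 28 fetal and stress genes on the array, 9 were higher and 0 lower, with a median of 0.78 beside -0.019 for all genes. Between 7 and 11 of them were called when any single array was left out. Synpo2l, which encodes a Z-disc protein of the synaptopodin family, rose by 1.14 ± 0.11 with TAC signals of 11246 to 12993 against 5418 to 5575. Rcan1, the regulator of calcineurin whose own transcription calcineurin drives, rose by 1.76 ± 0.23 with 7515 to 14013 against 2062 to 3940. The other called members were Actn1, an alpha-actinin of adhesion sites (1.13 ± 0.14), Flnc, the muscle filamin (0.95 ± 0.12), Enah, a regulator of actin filaments (0.84 ± 0.14), and Uchl1, a deubiquitinating enzyme (1.27 ± 0.23). Nppb, the gene of brain natriuretic peptide, read 21328, 14953, 23301 and 30066 after TAC and 4672, 5792, 12373 and 16473 after sham. The lowest TAC mouse lay below the highest sham mouse, and the change of 1.33 ± 0.38 was not called (adjusted p = 0.169). Ankrd1, a stretch-responsive nuclear protein, read 30213 to 37248 after TAC and 16977 to 25189 after sham, without overlap, and at 0.72 ± 0.16 was not called by its brightest probe set (adjusted p = 0.0709). Its second probe set read 31686 to 38981 against 14071 to 23250 and was called higher (0.97 ± 0.17, adjusted p = 0.039). Myh6 itself had a change of -0.14 ± 0.14 with overlapping groups (adjusted p = 0.75). Its signals of 42418 to 61452 lay at the top of the range of these arrays, and whether the scale limits its measured change was not tested. Atrial markers varied widely between mice of both groups. Myl7, the atrial myosin light chain gene, chosen after its values were seen, read 363.2, 35.6, 2708 and 2092 after TAC and 1535, 3190, 82.8 and 507.7 after sham. Of 14 atrial markers 1, Nppa, was called, 9 had a change above 0, and 3 had every TAC mouse above every sham mouse and 1 every TAC mouse below. Over all genes the last 2 shares were 4.03% and 3.6%. The mean level of the list was 9.01 to 10.02 (log2) after TAC and 8.61 to 9.71 after sham. Their part in the change of Nppa was not tested.

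The sequence before the start of 3 genes among the 10 largest rises is shown because it holds letters that muscle and load-responsive promoters often carry. Capitals mark matches to the motifs searched, on either strand: the CArG box bound by serum response factor, the M-CAT element CATTCC bound by TEAD factors, CTANNNNTAG for MEF2, AGATAA for GATA factors, CAGACA for SMAD proteins and GGTCANNNTGACC, a palindromic element for oestrogen receptors. Each run covers the 250 bases before the annotated start, read 5′ to 3′ on the gene's strand, from RefSeq's GRCm38.p6 table.
Acta1, chr8:123894776-123895025, minus strand: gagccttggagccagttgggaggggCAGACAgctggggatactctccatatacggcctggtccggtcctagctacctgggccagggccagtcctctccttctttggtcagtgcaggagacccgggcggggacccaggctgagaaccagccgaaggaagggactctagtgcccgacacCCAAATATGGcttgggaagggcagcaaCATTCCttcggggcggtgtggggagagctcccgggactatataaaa
Dio2, chr12:90739039-90739288, minus strand: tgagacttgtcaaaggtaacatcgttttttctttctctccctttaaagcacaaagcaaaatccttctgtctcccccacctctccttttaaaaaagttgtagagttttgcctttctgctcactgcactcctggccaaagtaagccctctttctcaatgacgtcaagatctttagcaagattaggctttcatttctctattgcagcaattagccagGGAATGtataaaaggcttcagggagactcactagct
Thbs4, chr13:92794819-92795068, minus strand: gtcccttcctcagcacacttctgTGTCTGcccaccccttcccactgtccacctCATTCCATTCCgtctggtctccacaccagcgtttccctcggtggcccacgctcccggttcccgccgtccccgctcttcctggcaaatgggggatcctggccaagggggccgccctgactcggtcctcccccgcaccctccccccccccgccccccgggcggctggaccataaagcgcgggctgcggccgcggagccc
The Acta1 run has the CArG box 73 to 64 bases before the start and an M-CAT element 46 to 41 bases before it. Dio2 has an M-CAT element on the other strand 36 to 31 bases before its start, and Thbs4 has a pair of overlapping ones that begin 197 and 192 bases before its start. A promoter was found for 83 of the 114 higher genes, 29 of the 40 lower genes and 14452 of the 18193 genes on the array. An M-CAT element lay in 21 of the 83 (25.3%), in 6 of the 29 (20.7%) and in 13.4% of all genes on the array, and in 12.6% of all 32851 runs of this length in the table. Among genes with a single start in the table the shares were 24.6% of 69 higher genes and 11.3% of all. The CArG box was in 2.41% of higher genes and 1.43% of all, and the SMAD letters were in 18.1% and 17.2%. No called gene held the oestrogen receptor element, which was in 0.0277% of all genes on the array. These shares were not tested, and a match is letters in a window and not a shown site.

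Of the 10 largest rises 7 were genes of the extracellular matrix. In the lists, 16 of 37 matricellular and matrix proteins, 5 of 22 collagen chains and 4 of 29 genes of matrix crosslinking and turnover were higher, and 0 were lower in each list. The medians were 1.10, 0.81 and 0.34. When 1 array was left out, 10 to 21 of the matricellular genes were called, with 10 without any one of TAC replicates 1 and 3 or sham replicates 1, 3 and 4. Mfap4, which encodes a glycoprotein of elastic microfibrils, read 1897, 1268, 1977 and 745.0 after TAC and 14.0, 116.2, 18.2 and 11.9 after sham. It went from near the floor of the array in 3 of the sham mice to a clear signal in all 4 TAC mice, and rose by 4.50 ± 0.42 (22.6-fold on the log2(signal + 32) scale, adjusted p = 0.00166). Since 3 sham values lie below the added 32, the size of this change is set by that choice: it was 5.74 with 1 added in place of 32 and 3.21 with 4 times the 32 added, and that of Ltbp2 below was 4.82 and 2.61. Ltbp2, a latent TGF-beta binding protein of microfibrils, read 1429, 1070, 1006 and 408.2 after TAC and 31.7, 65.0, 5.7 and 68.1 after sham, and rose by 3.74 ± 0.40. Cilp, a secreted protein of cartilage and stressed myocardium, read 6180, 5059, 7151 and 2756 after TAC and 571.4, 695.7, 352.0 and 371.9 after sham. Its rise was 3.30 ± 0.30, or 9.82-fold. In both genes TAC replicate 4 was the lowest TAC mouse and still stood above every sham mouse.

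The thrombospondin family gave 2 of the 10 largest rises. Comp, the cartilage oligomeric matrix protein, rose by 3.59 ± 0.42 with TAC signals of 3638, 1781, 4441 and 863.2 against 130.7 to 185.2. Thbs4, a thrombospondin that load induces in muscle and tendon, rose by 2.82 ± 0.28 with 3220, 2051, 2752 and 1107 against 234.8 to 324.6. Postn, which encodes periostin and marks activated fibroblasts, read 14477, 9152, 7088 and 5709 after TAC and 1013, 836.7, 1667 and 1465 after sham, and rose by 2.80 ± 0.29. Ccn2, the connective tissue growth factor gene and a target of TGF-beta and of TEAD factors, read 10273, 7918, 13374 and 6740 after TAC and 1758, 1579, 1674 and 1279 after sham, and rose by 2.54 ± 0.20 (5.83-fold, adjusted p = 0.0013). Its sham values lay within a narrow band. Fmod, a small proteoglycan that binds collagen fibrils, rose by 2.57 ± 0.43 with 1317, 638.0, 2776 and 576.6 against 111.3 to 219.3, and 1 of its 6 probe sets was called. Fmod kept its call in 3 of the 8 fits that left out 1 array, while Comp, Thbs4, Postn and Ccn2 kept theirs in all 8. The remaining called matrix proteins ran from Sparc, a collagen-binding glycoprotein, at 0.98 ± 0.18 to Ccn5, a relative of Ccn2, at 2.09 ± 0.34. They included the proteoglycans Bgn (1.58 ± 0.19) and Aspn (1.25 ± 0.23) and the elastic fibre genes Eln (1.48 ± 0.28), Fbln2 (1.33 ± 0.24) and Mfap5 (2.02 ± 0.23).

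Of the collagen chains 21 of 22 had a change above 0. Col8a1, a short-chain collagen of vessel walls and scars, read 6766, 5525, 4134 and 2640 after TAC and 808.4, 724.8, 948.5 and 757.0 after sham, and rose by 2.44 ± 0.25. Col12a1, a collagen that sits on the surface of fibrils, rose by 2.38 ± 0.28 with 271.4 to 749.2 against 56.6 to 78.0, and 1 of its 4 probe sets was called. The fibril-forming chains moved less: Col5a2 rose by 1.69 ± 0.23, Col1a1 by 1.61 ± 0.27 and Col1a2 by 1.33 ± 0.23. Col3a1 read 21160, 20543, 18070 and 10898 after TAC and 7738 to 10718 after sham. Its groups did not overlap, yet its change of 0.93 ± 0.21 by the brightest probe set was not called (adjusted p = 0.0846). A dimmer Col3a1 probe set read 2675, 2235, 1293 and 886.8 after TAC and 429.6 to 616.0 after sham and was called higher (1.57 ± 0.30, adjusted p = 0.0494). Without TAC replicate 4 the number of collagen chains called was 11, and without sham replicate 1 it was 2. Col8a1 and Col12a1 kept their calls in all 8 fits that left out 1 array, Col5a2 in 7 and Col1a1 in 2. Of the enzymes that crosslink collagen and elastin, Lox rose by 1.84 ± 0.33 with 968.9, 293.1, 487.8 and 338.0 against 77.2 to 146.1, and Loxl1 by 1.497 ± 0.26 with 3225 to 6475 against 1440 to 2840. Timp1, an inhibitor of matrix metalloproteinases, read 1226, 513.2, 601.1 and 410.5 after TAC and 108.2 to 222.1 after sham, and rose by 1.84 ± 0.32 (adjusted p = 0.0353). Mmp23, a membrane metalloproteinase gene, rose by 1.22 ± 0.23. None of the crosslinking and turnover genes was called without any one of TAC replicates 1, 2 and 3 or sham replicates 1, 3 and 4, while 6 were without TAC replicate 4.

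In the TGF-beta and BMP pathway 4 of 32 genes were higher and 0 lower, with a median of 0.21. The count was 1 without any one of TAC replicates 1 and 3 or sham replicates 1, 3 and 4, 2 without TAC replicate 2 and 5 without TAC replicate 4, and only Fstl1 kept its call in all 8 of these fits. Among the ligands, Tgfb2 read 848.3, 716.6, 776.2 and 496.1 after TAC and 287.5 to 391.3 after sham and rose by 0.98 ± 0.19, while Tgfb3 read 614.6 to 947.2 against 319.1 to 364.7 and rose by 1.02 ± 0.16. The secreted proteins Fstl1, a follistatin-like glycoprotein (1.55 ± 0.21), and Tgfbi, named for its induction by TGF-beta (0.84 ± 0.16), rose as well. Outside the lists and singled out after their values were seen, the pathway's negative regulators Pmepa1 (1.00 ± 0.18) and Bambi (0.83 ± 0.12) and Adamtsl2 (1.39 ± 0.17), whose product binds latent TGF-beta binding proteins, were also called. So were Serpinf1, a secreted serpin (1.87 ± 0.26), Frzb, a secreted Wnt antagonist (1.83 ± 0.29), and Vgll3, a cofactor of TEAD factors (1.51 ± 0.18 with 504.8 to 779.3 against 170.5 to 213.8). Of 25 fibroblast markers 2 were higher, Meox1, a homeobox factor of activated fibroblasts (2.19 ± 0.25), and Mfap5, and 0 were lower, with a median of 0.36. Of the 25, 19 had a change above 0, 5 had every TAC mouse above every sham mouse and 0 every TAC mouse below. Over all genes the last 2 shares were 4.03% and 3.6%. Chosen after their values were seen, Pdgfra and Tcf21, which mark cardiac fibroblasts as a population, read 1091 to 1969 against 1097 to 2157 and 702.1 to 1754 against 706.0 to 1283, overlapping in both. Vim, the vimentin gene, also chosen after its values were seen, read 11060 to 16779 against 8153 to 10000 without overlap. Its change of 0.76 ± 0.16 was not called (adjusted p = 0.066). The mean level of the fibroblast list was 10.10 to 10.82 (log2) after TAC and 9.79 to 10.12 after sham.

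**Figure D2:**
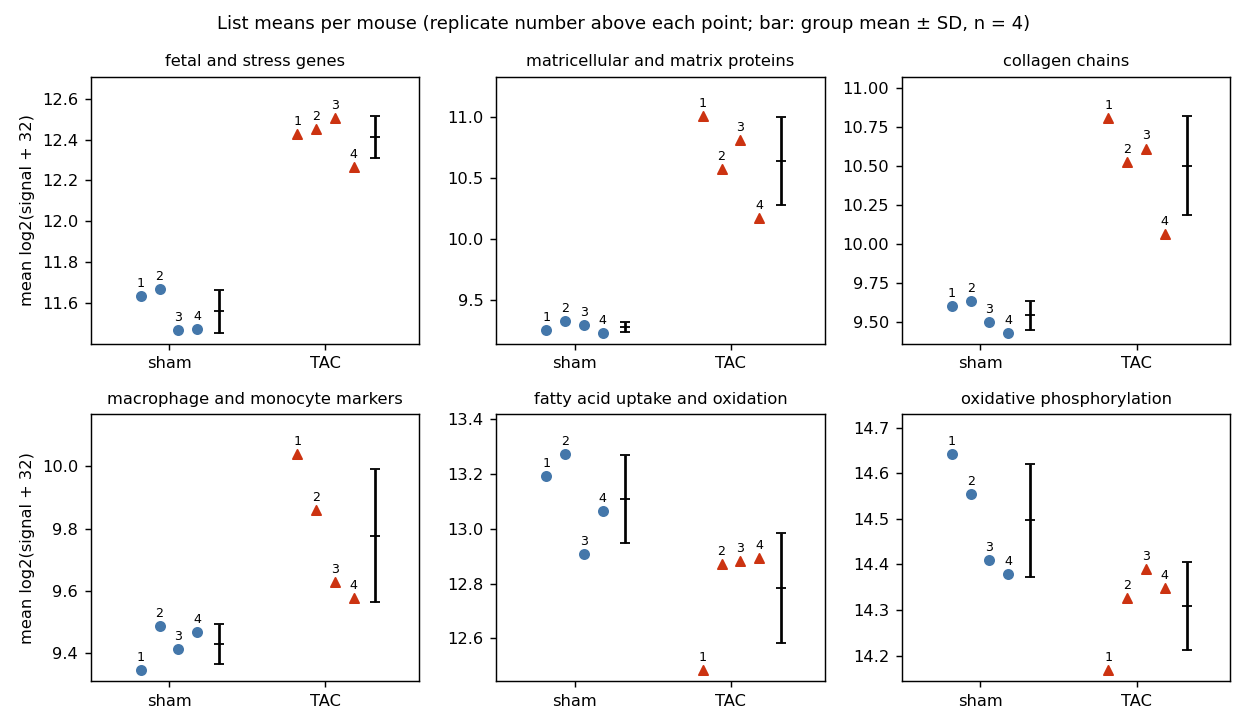
Mean log2(signal + 32) of 6 gene lists in each of the 4 sham mice (circles) and 4 TAC mice (triangles), with the replicate number above each point and a bar for the group mean ± SD (n = 4). The matrix, collagen and fetal means lie higher in all TAC mice, with TAC replicate 4 the lowest of them; the sham and TAC ranges overlap slightly for oxidative phosphorylation.

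The size of the matrix response varied between the TAC mice. The mean over the matricellular list was 11.001, 10.57, 10.80 and 10.17 (log2) in TAC replicates 1 to 4 against 9.23 to 9.33 in the sham mice, and over the collagens 10.81, 10.53, 10.61 and 10.07 against 9.43 to 9.64. TAC replicate 4 was the lowest TAC mouse for 70 of the 114 genes called higher, and the other TAC mice were the lowest for 12 to 16 each. Its fetal list mean of 12.27 was also the lowest of the TAC mice, whose others had 12.43 to 12.50, while the sham mice had 11.47 to 11.67. For single genes the order could turn: Myot, which encodes the Z-disc protein myotilin, was highest in TAC replicate 4 at 12664, against 5389 to 6390 in the other TAC mice and 2127 to 3605 in the sham mice, and rose by 1.38 ± 0.26. Dio2, the deiodinase that makes active thyroid hormone and the only called metabolic regulator of 24, read 1492, 744.8, 1440 and 605.0 after TAC and 69.6 to 117.4 after sham, and rose by 2.97 ± 0.29 (7.83-fold, adjusted p = 0.00247). Of the 8 fits that left out 1 array, Myot kept its call in 1 and Dio2 in all 8.

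Growth factor, receptor and stress pathway lists gave 1 or 2 called rises each, beside 0.627% of all genes called higher and 0.22% called lower. Most of these calls were lost in several of the fits that left out 1 array. Tnfrsf12a, the receptor of the cytokine TWEAK, rose by 1.64 ± 0.19 with 5725 to 8354 against 1571 to 2927, and Lbp, which binds bacterial lipopolysaccharide, by 1.08 ± 0.20. They were the 2 of 38 cytokine and acute phase genes called, of which 27 had a change above 0, with a median of 0.33. Hbegf, an EGF-family ligand made by stressed myocytes, rose by 0.83 ± 0.15 with 1113 to 1677 against 684.8 to 880.2, and Igfbp7, a secreted binding protein, by 1.28 ± 0.24, as the 2 of 42 growth factor and angiogenesis genes; 0 to 3 of that list were called higher when 1 array was left out. Igf1 had a change of 1.00 ± 0.20 with 1275 to 2382 against 696.7 to 1035 and missed the threshold by its brightest probe set (adjusted p = 0.0539), while a dimmer one, with 1071 to 1680 against 388.3 to 687.7, was called higher (1.21 ± 0.21, adjusted p = 0.0323). Nox4, an oxidase that makes hydrogen peroxide, rose by 1.16 ± 0.20 with 158.5 to 219.9 against 53.7 to 84.5. Notch4, a Notch receptor of endothelium, rose by 0.77 ± 0.12 with 1222 to 1462 against 693.1 to 824.3, and 1 of its 3 probe sets was called. Notch4 kept its call in 2 of the 8 fits that left out 1 array, while Tnfrsf12a kept its call in all 8. Of 26 immediate early genes only Ier5 was called (1.22 ± 0.23), although 24 had a change above 0 and the list median was 0.63. Ier5 kept its call in 1 of the 8 fits that left out an array. Fos, chosen after its values were seen, read 250.7 to 1563 after TAC and 69.3 to 1289 after sham, a wide spread in both groups. Tubb2a, a beta-tubulin, rose by 1.06 ± 0.19, and Pfkp, a phosphofructokinase of glycolysis, rose by 0.62 ± 0.11 as the only one of 27 glycolysis genes.

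**Figure D3:**
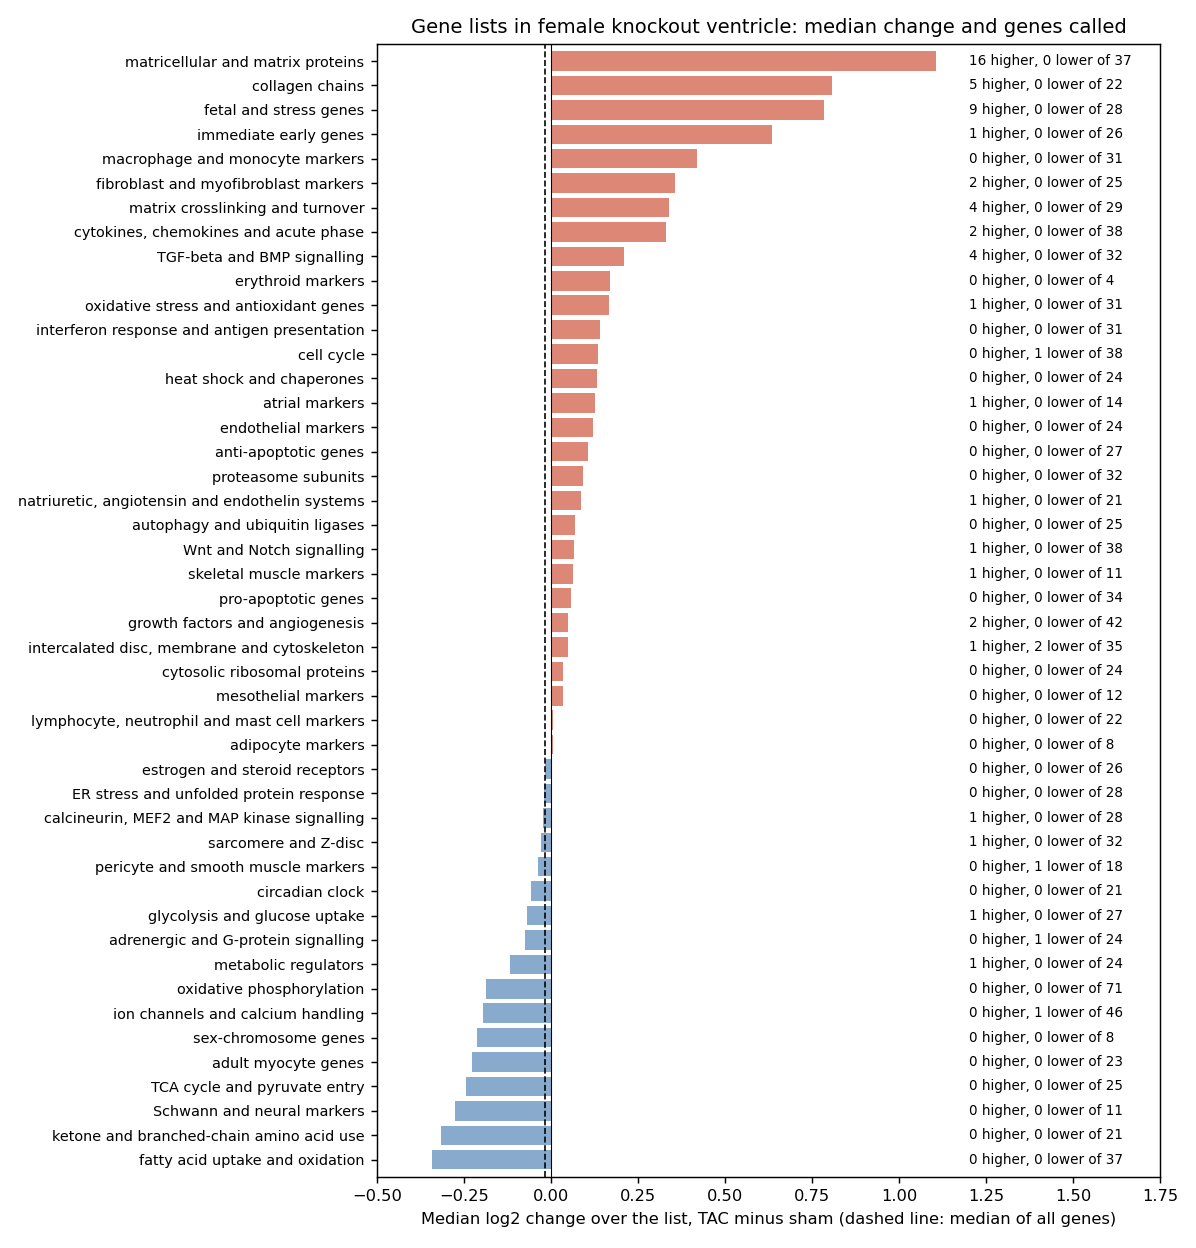
Median log2 change (TAC minus sham) of the 46 gene lists over their genes on the array, with the number of genes called higher and lower written at the right; the dashed line is the median over all 18193 genes. The matricellular list has the highest median and 16 calls, while the lists of fatty acid use, ketone and amino acid use and the citric acid cycle have medians below the line and 0 calls.

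In the lists of fatty acid use, the citric acid cycle and oxidative phosphorylation most members had a change below 0 and none was called. With 0.627% of all genes called higher and 0.22% lower, 0 calls in lists of this length do not set their genes apart. Of 37 fatty acid uptake and oxidation genes 0 were called in either direction, 3 had a change above 0 and the median was -0.34. Of 25 genes of the citric acid cycle and pyruvate entry 0 were called and 0 had a change above 0, with a median of -0.24. Of 71 oxidative phosphorylation genes 0 were called and 4 had a change above 0, with a median of -0.19. With quantile normalization that last median was -0.09, and 3 fatty acid genes were called lower. Every TAC mouse lay below every sham mouse in 11 fatty acid, 10 citric acid cycle and 11 oxidative phosphorylation genes. Every TAC mouse lay above in 0 genes of each list. The shares over all genes were 3.6% below and 4.03% above. The following members were chosen after their values were seen. Hadha, a subunit of the mitochondrial trifunctional protein, read 7630, 10348, 11109 and 11882 after TAC and 14144 to 17381 after sham, a change of -0.63 ± 0.16 (adjusted p = 0.114). Ech1, an enzyme of unsaturated fatty acid oxidation, read 18221 to 25995 against 33540 to 40273, a change of -0.68 ± 0.15 (adjusted p = 0.0789). Neither had overlapping groups. Bdh1, which lets the heart use ketone bodies, went the other way with 10719 to 15235 against 3894 to 9748, a change of 0.98 ± 0.25 (adjusted p = 0.12). Ppargc1a, a coactivator of mitochondrial genes, read 1535 to 2434 against 2416 to 3534 with slight overlap (-0.56 ± 0.19, adjusted p = 0.257), and Pdk4, the kinase that closes pyruvate entry, 5239 to 21412 against 4028 to 16551 (0.48 ± 0.50, adjusted p = 0.759). The mean level of fatty acid genes was lowest in TAC replicate 1 at 12.49 (log2), against 12.87 to 12.89 in the other TAC mice and 12.91 to 13.27 in the sham mice.

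The called falls were fewer than the called rises and formed no single list. At an unadjusted p under 0.05, by contrast, 2193 probe sets were lower and 1940 higher. Cenpf, which encodes a large kinetochore protein of dividing cells, read 269.3, 266.3, 205.3 and 177.0 after TAC and 1570, 1340, 1073 and 781.8 after sham. It fell by 2.20 ± 0.22 on the log2 scale (4.59-fold lower, adjusted p = 0.00273) and was the only called gene of 38 cell cycle genes, whose median was 0.14. Of the 3 Cenpf probe sets 1 was called. Ano10, of the anoctamin family of membrane proteins, read 532.5, 569.7, 917.1 and 787.4 after TAC and 2584 to 2610 after sham. The sham mice were almost identical in this gene, and it fell by 1.87 ± 0.17 (3.66-fold lower, adjusted p = 0.00166). Gpr22, an orphan receptor of the heart, read 387.6, 465.4, 362.2 and 837.2 after TAC and 1026 to 1865 after sham and fell by 1.496 ± 0.27. Gpr22 kept its call in 1 of the 8 fits that left out 1 array, while Cenpf and Ano10 kept theirs in all 8.

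Metabolic enzymes stood among the other large falls: the carboxylesterase Ces1d fell by 1.39 ± 0.19 with 1155 to 1849 against 3462 to 5511, and Fbp2, the muscle fructose bisphosphatase, by 1.29 ± 0.19 with 414.9 to 728.9 against 1114 to 1629. Pla2g5, a secreted phospholipase, fell by 1.36 ± 0.15 with 224.3 to 328.3 against 676.5 to 741.3. Dusp7, a phosphatase of MAP kinases, fell by 1.27 ± 0.22, Egflam, a secreted matrix protein, by 1.25 ± 0.16, and Gdap10 by 1.27 ± 0.23. Tbrg3 fell by 1.15 ± 0.20 at signals of 5.8 to 19.5 against 37.1 to 83.0, near the floor of the array. Of the 8 fits that left out 1 array, Fbp2 kept its call in 4, Dusp7 in 3, Tbrg3 in 2 and Gdap10 in 1. Ces1d, Pla2g5 and Egflam kept theirs in all 8. Other called falls, singled out after their values were seen, were Phkg1, the catalytic subunit of phosphorylase kinase (-1.14 ± 0.20), Aqp7, a channel for glycerol (-0.92 ± 0.15), Dhrs7c, an enzyme of the sarcoplasmic reticulum (-0.94 ± 0.15), and the cytokine Il15 (-1.02 ± 0.18).

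Among 46 ion channel and calcium handling genes 1 was lower and 0 were higher, with a median of -0.20. Abcc9, the sulphonylurea receptor subunit of ATP-sensitive potassium channels, read 7666, 6093, 6916 and 7310 after TAC and 9838 to 13540 after sham and fell by 0.72 ± 0.14 (adjusted p = 0.0451). It kept its call in 1 of the 8 fits that each left out 1 array. Kcnd2 and Kcnv2, potassium channel subunits chosen after their values were seen, had changes of -0.99 ± 0.21 and -1.02 ± 0.20 without overlap and missed the threshold (adjusted p = 0.0683 and 0.0519). Atp2a2, the calcium pump of the sarcoplasmic reticulum, read 30601 to 37984 against 36513 to 46517 by its brightest probe set. That change of -0.23 ± 0.14 was not called (adjusted p = 0.571). A dimmer Atp2a2 probe set read 2164 to 3210 against 4293 to 4844 and was called lower (-0.83 ± 0.14, limma adjusted p = 0.0295). Of 35 genes of the intercalated disc, membrane and cytoskeleton 2 were lower, the desmosomal cadherin Dsg2 (-0.94 ± 0.16 with 3028 to 3792 against 4820 to 7633) and Ctnna3, the alpha-T-catenin (-0.93 ± 0.17). Dsg2 kept its call in 2 and Ctnna3 in 1 of the 8 fits that left out 1 array. Of 23 adult myocyte genes 0 were called by their brightest probe sets, and 2 had a change above 0. Their median was -0.23, and -0.12 with quantile normalization. In 8 of them every TAC mouse lay below every sham mouse and in 0 above, beside 3.6% and 4.03% of all genes. Some of them, such as Myh6, lay near the top of the scale. A dimmer probe set of Tnnt2, the cardiac troponin T gene, was called lower (-1.24 ± 0.17, limma adjusted p = 0.0104), beside -0.17 for its brightest.

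Cells other than myocytes were followed through marker lists. Of 31 macrophage and monocyte markers 0 were called in either direction, 27 had a change above 0 and the median was 0.42. With 0.627% of all genes called higher and 0.22% lower, 0 calls in a list of this length do not set it apart. In 8 of the 31 every TAC mouse lay above every sham mouse and in 1 below, beside 4.03% and 3.6% of all genes. The mean level of the list was 10.04, 9.86, 9.63 and 9.58 (log2) in TAC replicates 1 to 4 and 9.35 to 9.49 in the sham mice, and 28 of the 31 markers had a mean at or above the array median. The following markers were chosen after their values were seen. Tyrobp, an adaptor of myeloid receptors, read 862.6 to 1506 after TAC and 650.3 to 788.6 after sham (0.62 ± 0.17, adjusted p = 0.159), and C1qc, a complement subunit of resident macrophages, read 2035 to 4593 against 1209 to 2305 (0.97 ± 0.25, adjusted p = 0.136). Retnla, a secreted protein of alternatively activated macrophages, went the other way with 91.8 to 281.1 against 424.1 to 583.5, without overlap (-1.32 ± 0.27, adjusted p = 0.0607). The part of these cells in the matrix and cytokine genes was not tested. Without TAC replicate 4, 2 of the markers were called higher and 1 lower. Of 24 endothelial markers 0 were called (median 0.12), of 18 pericyte and smooth muscle markers 1 was lower (Abcc9), and of 22 lymphocyte, neutrophil and mast cell markers 0, with a mean level of 6.35 to 6.45 after TAC and 6.24 to 6.68 after sham. Only 2 of those 22 reached the array median, so these cells were close to the floor of the measurement in both groups.

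Receptors for oestrogen and genes of cell death showed no call. Over all genes 0.627% were called higher and 0.22% lower. At these shares, 0 calls in lists as short as the following do not set their genes apart from the rest of the array. Of 26 genes of oestrogen and steroid receptors and their cofactors 0 were called, with a median of -0.02. Esr1, the gene of oestrogen receptor alpha, read 94.9, 122.4, 107.7 and 140.7 after TAC and 53.0, 106.6, 106.7 and 75.3 after sham, near the array median and with overlap (0.36 ± 0.23, adjusted p = 0.587). Gper1, the G protein-coupled oestrogen receptor gene, had a change of 0.13 ± 0.20 (adjusted p = 0.843). The Esr2 signal was lower after TAC without overlap (-1.11 ± 0.27), which was not called (adjusted p = 0.108). Of 34 pro-apoptotic and 27 anti-apoptotic genes 0 were called, with medians of 0.06 and 0.11. Bcl2l11, which encodes the death activator Bim, read 671.8, 879.8, 911.1 and 575.3 after TAC and 1477, 1969, 1644 and 1149 after sham. Its groups did not overlap, and the change of -1.01 ± 0.20 just missed the threshold (adjusted p = 0.053). Bcl2 had a change of 0.75 ± 0.21 with overlap (adjusted p = 0.167), and Agtr1a, the angiotensin II receptor gene, of -0.55 ± 0.12 without overlap (adjusted p = 0.0648).

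Whether the response of female knockout mice differed from that of female wild-type mice was tested as a difference of the 2 responses over 16 arrays. No probe set passed: 0 of 34945 were called (0.0%), the smallest adjusted p in limma was 0.998 and 1371 (3.92%) had an unadjusted p under 0.05. The labels state no TAC duration for the wild-type mice, so a difference in duration cannot be told apart from genotype here. Among the 163 probe sets called higher in female knockout mice, 163 had a change above 0 in female wild-type mice, and 56 of the 63 lower ones had a change below 0. Myh7 changed by 3.69 in wild-type females, a difference of -0.60 ± 0.38, and Acta1 by 2.50, a difference of 0.20 ± 0.44. Mfap4 was the named gene with the largest difference, 1.71 ± 0.57 (unadjusted p = 0.00762, adjusted p = 1.0). Its TAC signals were alike, with 745.0 to 1977 in knockout and 1038 to 2291 in wild-type females, while the sham signals were 11.9 to 116.2 in knockout and 83.1 to 322.5 in wild-type females. Notch4 changed by 0.17 in wild-type females, a difference of 0.59 ± 0.20 (unadjusted p = 0.00955, adjusted p = 1.0). The median difference over the higher probe sets was 0.20 and over the lower ones -0.26, beside -0.03 over all and a median SE of 0.30. These probe sets were picked by their change in the same knockout arrays, which by itself favours larger changes there. The 2 medians therefore do not show a stronger response in the knockout. The 3 genes with the smallest p-values, by their brightest probe sets, were Tafa5 (1.44 ± 0.33), Crisp2 (0.98 ± 0.23) and Slc39a2 (1.24 ± 0.29), each with an adjusted p of 1.0. The TAC and sham values of Tafa5 and Slc39a2 overlapped in the knockout females, and Crisp2 read 12.2 to 32.2 against 2.0 to 6.8, near the floor of the array.

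**Figure D4:**
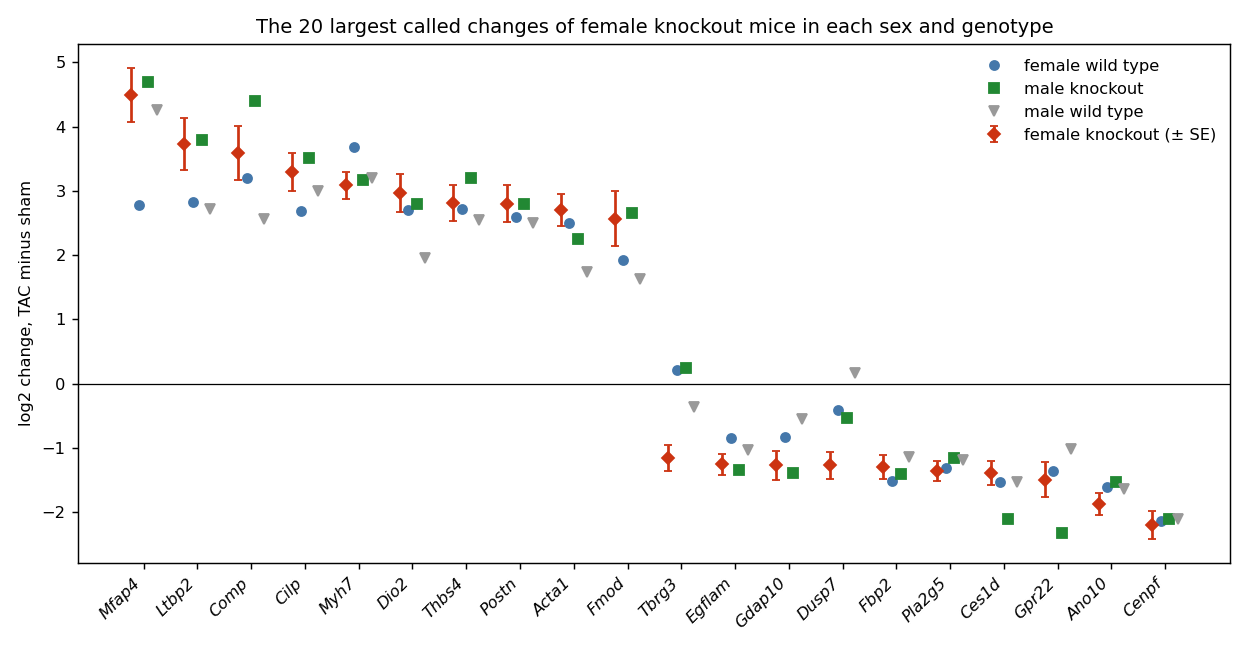
Log2 change (TAC minus sham) of the 10 largest rises and 10 largest falls called in female knockout mice (diamonds, ± SE of the fit) beside the changes of female wild-type, male knockout and male wild-type mice, each a difference of means of 4 against 4 mice. The 10 rises lie above 0 in all 4 kinds of mice, while Tbrg3 and Dusp7 lie close to 0 or above it in some of the others.

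The same test against male knockout mice, whose TAC duration was also 9 weeks, called 0 of 34945 probe sets (0.0%), with a smallest adjusted p of 0.418 and 1419 (4.06%) at an unadjusted p under 0.05. All 163 of the higher probe sets had a change above 0 in male knockout mice, and 59 of the 63 lower ones had a change below 0. The median difference over the higher probe sets was -0.18 and over the lower ones 0.07, beside -0.04 over all. Here too the probe sets were picked by their change in the female knockout arrays, so these medians compare the sexes unevenly. Comp changed by 4.39 in male knockout mice, a difference of -0.80 ± 0.89, and Timp1 by 3.14, a difference of -1.30 ± 0.90. Tgfb3 changed by 1.87 there, a difference of -0.86 ± 0.30 (unadjusted p = 0.0113, adjusted p = 0.936). Among brightest probe sets the smallest p-values were those of Cd209d (-1.79 ± 0.34), Tbrg3 (-1.39 ± 0.27) and Oosp2 (-1.03 ± 0.21), with an adjusted p of 0.695 each and signals of 1.5 to 88.4 in female knockout mice.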

How the data were processed

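RNA of 1 left ventricle per mouse was measured on 1 array per mouse. The authors deposited linear MAS5 signal intensity values (MAS5 version 5.0, per the submitters' processing notes), and the trimmed mean of 500 was found in the values themselves. Samples were grouped by their labels, which name separate mice. Of 45101 probe sets, 64 were array controls, 932 carried several gene symbols and 9160 none in the platform annotation, which left 34945 probe sets of 18193 genes. Log2(signal + 32) was computed and tested with limma 3.58.1 (lmFit and eBayes with a trend, R 4.3.3), two-sided, with Benjamini-Hochberg adjustment over all probe sets. The main comparison used 8 arrays, and each difference of 2 responses used 16. For counts over genes, the brightest probe set on average over the 8 arrays stood for the gene. A call could thus rest on 1 of several probe sets. Of the called genes 0 had another probe set of opposite sign at an unadjusted p under 0.05. The code was tested on simulated data. The number of arrays limits the precision, and each limma p-value sets a difference of means against a moderated estimate of the spread between these mice.

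The named genes were the 10 largest called rises and falls without overlap, up to 4 called genes per list with the smallest p, a panel of genes, and the 3 smallest p of each difference of responses. Others were checks of tissue and sex, further called members of a list, or dimmer called probe sets. The rest are said to be chosen after their values were seen. The members, lists and panel were chosen with earlier results of these data known. Replicate numbers were not used as pairs in the main fit. Deviations from the group means correlated at 0.092, 0.623, -0.343 and 0.626 between same-numbered mice and at -0.66 to 0.626 between others. These values do not settle whether same-numbered mice shared a step of the experiment. Promoter sequences came from RefSeq's GRCm38.p6 table. Alternatives were other scalings, pseudocounts, filters, fits and covariates, and leaving out each array.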

Additional observations from a re-analysis of the deposited data

Results flagged for a closer look

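Within groups of 4 mice, 5 of the 130 groups checked (3.8%) had a mouse set apart from the other 3 by Dixon's gap test at the 95% level, and chance gives about 1 in 20. In TAC replicate 4, Igfbp7 read 12506.3 against 21179.8 to 22892.2 in the other TAC mice, Loxl1 read 3225.2 against 6148.3 to 6475.4, and Mmp23 read 363.3 against 662.1 to 743.7. Gper1 read 88.2 in the same mouse against 116.3 to 120.6. All 3 called genes among these were nevertheless higher in TAC replicate 4 than in every sham mouse. In sham replicate 2, Mfap4 read 116.2 against 11.9 to 18.2 in the other sham mice, which is still below the lowest TAC mouse.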

How the results depend on the processing

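The 51 named calls kept their direction under the alternatives tried, except that Tbrg3 was not tested under the filter on low values, while the number of calls moved. Against 226 calls (163 higher, 63 lower), a filter on low values gave 395 (260, 135), all 32 arrays in the fit 786 (464, 322), no trend 133 (102, 31) and array weights 593 (375, 218). Centring on array medians gave 208 higher and 40 lower. With the Gapdh covariate 1 was called (0 higher, 1 lower), and with the beta-actin covariate 0, so that 1 and 0 of the 51 named calls held; the cause was not tested. The replicate block, which treats same-numbered mice as pairs, gave 474 (312, 162). Leaving out 1 array gave 75 to 327 calls (60 to 248 higher, 14 to 79 lower). It was 83, 88 and 75 without TAC replicates 1, 2 and 3 and 75, 93 and 104 without sham replicates 1, 3 and 4. Of 51 named called genes, 24 kept their call in all 8 of these fits. With the beta-actin covariate the changes of Atp2a2 (0.16) and Myh6 (0.23) turned, and Pdk4 turned with the Gapdh (-0.88) and beta-actin (-1.93) covariates; none of these genes was called. Neither difference of responses gave a call under any alternative, except that 1 probe set, of Mapk14, was lower against male knockout mice (-3.05 ± 0.35, limma adjusted p = 0.00445) without female knockout sham replicate 4 (0 to 1 calls over the arrays left out). With the replicate block these differences also had 0 calls.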

Other observations

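Of the 154 called genes 99 were in no list, and the following were chosen after their values were seen. Itgbl1, an integrin beta-like secreted protein, read 2187, 1281, 1432 and 803.5 after TAC and 213.4 to 295.8 after sham (2.27 ± 0.26). Cpxm2, a secreted carboxypeptidase-like protein, read 3016 to 5394 against 704.4 to 1352 (2.06 ± 0.23), and was not lowest in TAC replicate 4. Fgf6, a fibroblast growth factor of muscle, read 144.0 to 324.3 against 7.3 to 51.1 (2.25 ± 0.30). Mybpc2, the fast skeletal form of myosin binding protein C, read 1437 to 3658 against 427.3 to 1058 (1.80 ± 0.33). Aqp8, a water channel, read 602.6 to 908.7 against 198.8 to 258.6 (1.6 ± 0.17). Among the falls, Rnf207, a ubiquitin ligase linked to cardiac repolarisation, read 1642 to 1999 against 2531 to 3348 (-0.73 ± 0.13).

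For 36 genes the brightest probe set was not called but a dimmer one was (40 probe sets, 20 higher and 20 lower, 39 of them with the sign of the brightest). A second probe set of Atp2a2 read 2164 to 3210 after TAC and 4293 to 4844 after sham (-0.83 ± 0.14, limma adjusted p = 0.0295), beside -0.23 for the brightest. One of Tnnt2, cardiac troponin T, read 2099 to 3410 against 5466 to 7607 (-1.24 ± 0.17), beside -0.17 for the brightest. One of Malat1, a nuclear noncoding RNA, read 2667 to 4277 against 7356 to 9233 (-1.29 ± 0.16), beside -0.72. For Edn3, an endothelin gene, 3 probe sets had changes of 1.46 to 2.28, beside 0.34 for the brightest. For Tpm2, a tropomyosin gene, 3 had changes of 1.14 to 1.83, beside 0.81. Which transcripts each probe set reads was not analysed here.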
